A study of Mus musculus with 6 samples.

Results

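The genes described here are 10 members of the Polycomb system, chosen by name among the 53700 genes listed. They are Scml2, the core genes Ezh1, Ezh2, Eed and Suz12 of Polycomb repressive complex PRC2, the genes Ring1, Rnf2, Bmi1 and Pcgf6 of PRC1, and Usp7. The libraries came from primary spermatocytes that had been sorted from testes by Hoechst staining and flow cytometry, from C57BL/6 mice aged 8 weeks. 3 were wild type (WT), and 3 were of the genotype labelled circSry KO, a knockout of the circular RNA of Sry, the gene that determines male sex. The labels state neither how the knockout was made nor whether different mice gave the replicates, and the p-values below therefore describe the spread among 6 samples that may be technical. The gene-level count of Sry was 0 in all 6 libraries and does not measure the circular RNA, so it cannot check the genotype. The study's title places circSry upstream of γH2AX through the microRNA miR-138-5p, and the comparison described here is circSry KO against WT.

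Polycomb proteins keep genes silent by marking histones. PRC2 methylates histone H3 at lysine K27 through its catalytic subunit EZH1 or EZH2, held together by EED and SUZ12, and PRC1 attaches ubiquitin to histone H2A through RING1 or RNF2, each paired with a PCGF protein such as BMI1 or PCGF6. SCML2 is a germline Polycomb protein encoded on the X chromosome, known in mouse male germ cells for binding the deubiquitinase USP7 and for its part in the ubiquitin marks of autosomes and of the silenced sex chromosomes in meiosis. Only messenger RNA was measured in these libraries, and no histone mark.

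Since the study concerns miR-138-5p, its sequence and its possible sites in a 3' UTR of each of the 10 genes are given first. Coding sequence, other 3' UTRs and other kinds of pairing were not searched, so a gene without a match may still pair with the microRNA. The RefSeq sequence of the mature microRNA on GRCm38.p6, encoded on chromosomes 8 and 9, is printed with its seed, bases 2 to 8, in capitals.
mmu-miR-138-5p: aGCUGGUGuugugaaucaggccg
The longest annotated 3' UTR of each gene (GENCODE, GRCm38) was searched on the sense strand for CACCAGC, which pairs with the whole seed, and for ACCAGCA, which pairs with its first bases and has an A beside them. The motifs overlap where both are present. There were 5 sites in 4 of the 10 genes, printed below 5′ to 3′ with the match in capitals.
Bmi1 site, chr2:18685297-18685304, plus strand: gctgaggcttacCACCAGCAcagaattt
Ezh2 site, chr6:47530366-47530372, minus strand: ttattgccttctCACCAGCtgcaaagt
Usp7 site, chr16:8690423-8690429, minus strand: cccaggtcctgcCACCAGCcctgcagc
Scml2 first site, chrX:161256637-161256643, plus strand: gctgaaactaggACCAGCAgtaaaact
Scml2 second site, chrX:161257026-161257032, plus strand: aaggaggaaaatACCAGCActtctaaa
A match of either kind was present in 19.9% of the 13881 tested genes with an annotated 3' UTR. Ezh1, Eed, Suz12, Ring1, Rnf2 and Pcgf6 held neither motif in this 3' UTR. A match is a description of the letters and not a measured site.

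The libraries held 7400360 to 9294723 estimated counts each, and 16829 genes had enough of them for a test. The 10 members had 133 to 4209 counts in a library, and all of them were tested. circSry KO replicate 3 stood apart. Its log2 CPM (counts scaled to library size) correlated across genes at 0.767 with circSry KO replicate 2 and at 0.919 with WT replicate 1, where circSry KO replicates 1 and 2 correlated at 0.942; genes are not independent replicates. Pachytene and diplotene marker genes, of the later prophase stages of primary spermatocytes, summed to 8046 to 10647 CPM in WT and to 7887, 6644 and 11001 CPM in circSry KO replicates 1, 2 and 3, and none of the 10 was at 0 in every library. Ldhc and Ybx2 make up most of that sum, and single members differed from it. Sycp1 was at 205 to 331 CPM in WT and 60.7 to 96.5 CPM in circSry KO, and Piwil1 at 1027 to 1437 CPM in WT and 55.5, 74.6 and 832 CPM in circSry KO replicates 1 to 3. Without circSry KO replicate 3, 5 of the 10 were called lower and 1 higher, where 16.2% of all genes were called lower and 18.5% higher. The p-values of that fit are too small, since replicate 3 was left out for standing apart. Leptotene to zygotene markers summed to 1076 to 1360 CPM in WT and to 500, 442 and 1698 CPM in circSry KO replicates 1 to 3. In replicate 3 that sum rests mainly on Tex101 (828 CPM) and Sycp3 (339 CPM). Of the 10 markers 4, Meiosin, Ythdc2, Hormad1 and Prdm9, were below every WT library in all 3 circSry KO libraries, against 14.3% of all genes. Round spermatid markers summed to 768 to 1376 CPM in WT and to 2025 to 2837 CPM in circSry KO. Elongating spermatid markers summed to 1992 to 3204 and 6207 to 16232 CPM. In all 3 circSry KO libraries 7 of 10 round and 6 of 10 elongating markers were above every WT library, against 14.1% of all genes. In circSry KO replicate 3 Akap4, an elongating marker, was below every WT library at 184 CPM. Smcp, Cabs1 and Gapdhs were within the WT range there, and the elongating sum rests mainly on Prm1, Tnp2, Prm2 and Tnp1. Macrophage markers summed to 28.7 to 44.1 CPM in WT and to 455, 257 and 51.3 CPM in circSry KO replicates 1 to 3. Sertoli cell markers summed to 60.8 to 85.2 CPM in WT and 187 to 332 CPM in circSry KO, and Clu makes up most of that sum. Of the 7 tested Sertoli markers 6 were above every WT library in all 3 circSry KO libraries, against 14.1% of all genes, and Gata4 overlapped. Leydig cell markers were at 622 to 903 CPM in WT and at 317, 268 and 735 CPM in circSry KO. Insl3 (524 CPM) and Fdx1 (147 CPM) make up most of the value in replicate 3. In all 3 circSry KO libraries 6 of the 9 tested markers, Cyp11a1 and Cyp17a1 among them, were below every WT library, against 14.3% of all genes. Endothelial and peritubular markers summed to 100.2 to 159 CPM in WT and to 535, 605 and 38.6 CPM in circSry KO. The high sums rest mainly on the mesenchymal genes Dcn (242 and 255 CPM), Col1a2, Col1a1, Acta2 and Pdgfra, and the endothelial genes Pecam1, Kdr, Cdh5 and Vwf had log2 fold changes of -0.18, -0.12, -0.0049 and -0.48. In bulk libraries, fewer cells of a type and less RNA per cell cannot be told apart. The part of these differences in the results that follow was not tested.

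Within WT spermatocytes the 10 genes were compared per transcript length, in TPM, the deposited level that also divides by transcript length. Ezh2 was the most abundant at 124.9 ± 5.87 TPM, followed by Usp7 at 113 ± 20.4 and Pcgf6 at 91.0 ± 37.1 TPM (SD, n = 3 each). Bmi1 stood at 59.5 ± 30.3 TPM, Rnf2 at 48.1 ± 19.1, Eed at 45.1 ± 14.8, Scml2 at 42.4 ± 19.7 and Ring1 at 41.5 ± 5.62 TPM. Suz12 at 24.4 ± 11.6 and Ezh1 at 15.2 ± 4.34 TPM were the lowest. Neighbours in this order differed by less than the larger of their SDs, except Ring1 and Suz12, whose WT libraries did not overlap. Of the alternative PRC2 enzymes, Ezh2 was 6.41 to 10.7 times as abundant as Ezh1 in the WT libraries.

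Between the genotypes, 8 of the 10 members had a negative log2 fold change and 2 a positive one, and none passed the test. In edgeR's quasi-likelihood test, adjusted over all 16829 genes by Benjamini-Hochberg, 0 members passed an adjusted p of 0.05, as did 0% of all genes in each direction. At an unadjusted p under 0.05, 4 members were lower (Ring1, Ezh1, Rnf2 and Pcgf6), against 9.84% of all genes tested, and 0 were higher, against 13.6%. DESeq2 called 1 member lower, Ring1, against 4.65% of all genes, and 0 higher, against 6.9%. The median log2 fold change of the members was -0.58, where that of all genes was 0.12. Scml2, Ezh1 and Ring1 had all 3 circSry KO libraries below all 3 WT libraries in CPM, a pattern shown by 14.3% of all genes in this direction, and 0 members had them all above, against 14.1%. In TPM this held for Ezh1, Ring1 and Pcgf6, against 21.7% of all genes, and 0 members were all above, against 5.81%.

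**Figure D1:**
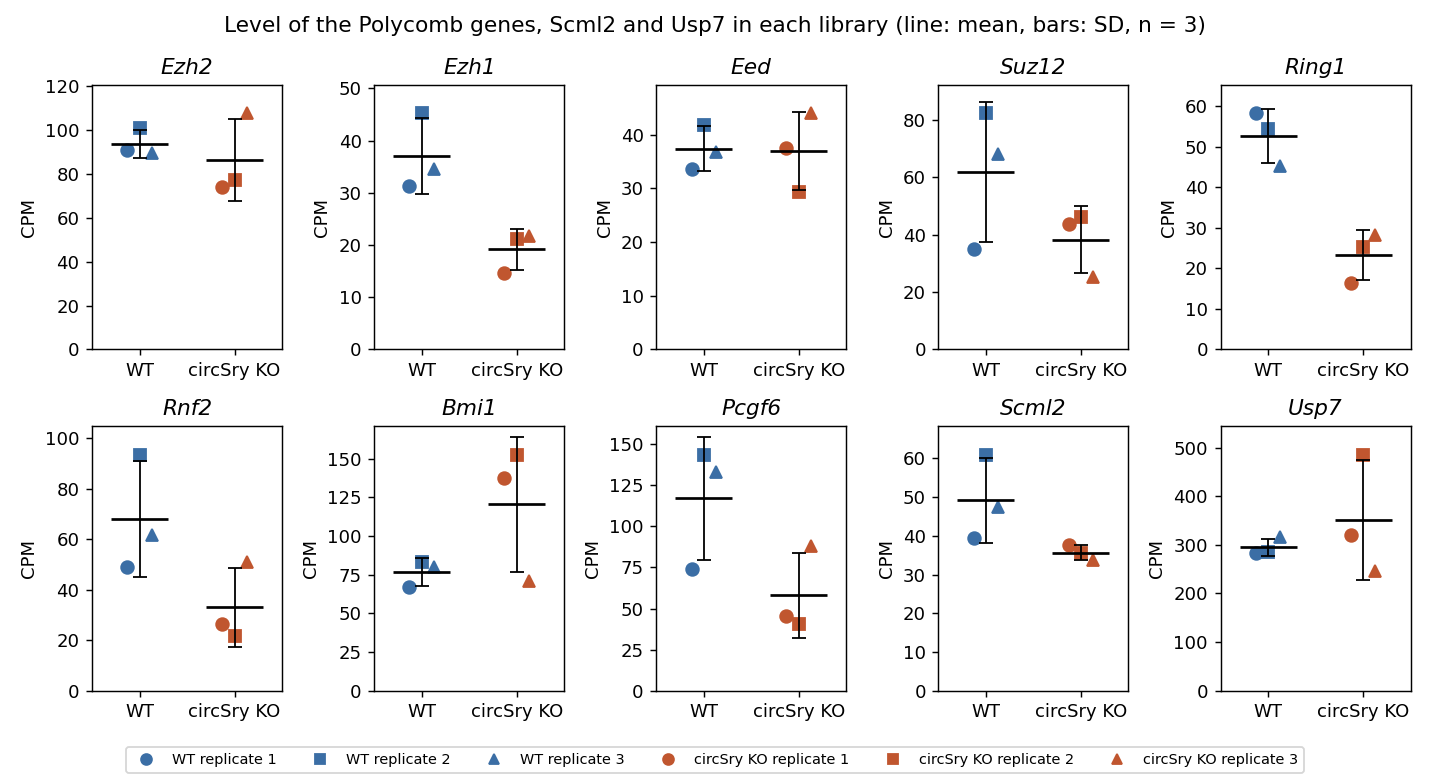
CPM of each gene in each library (y axis from 0) for WT (blue) and circSry KO (orange), with symbols for replicates 1, 2 and 3, the mean as a line and the SD as bars (n = 3 each). Ring1 and Ezh1 are separated between the groups, while circSry KO replicate 3 (triangle) lies apart from the other 2 KO libraries for Bmi1, Pcgf6 and Rnf2.

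Among the PRC2 enzymes, Ezh1 (chr11:101191115-101226463, GRCm38, minus strand), the form known for cells that divide little, had 31.3, 45.2 and 34.6 CPM in WT and 14.7, 21.1 and 21.7 CPM in circSry KO replicates 1, 2 and 3. Each KO library was below the lowest WT library. Its log2 fold change was -0.95 ± 0.33 (SE; edgeR adjusted p = 0.145), and offsets that remove each library's trend on transcript length took it to -0.58. Ezh2, the form known for dividing cells, stood at 90.8, 101 and 89.6 CPM in WT and at 74.0, 77.2 and 108 CPM in circSry KO. The groups overlapped, replicates 1 and 2 lying below WT and replicate 3 above it. The log2 fold change of Ezh2 was -0.12 ± 0.30 (SE; edgeR adjusted p = 0.834), or -0.47 with the length trend removed and 0.38 with implied lengths divided out.

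Eed, the subunit that reads the methylated histone tail, was at 33.5, 41.9 and 36.8 CPM in WT and at 37.6, 29.4 and 44.0 CPM in circSry KO, so the groups overlapped. Its log2 fold change of -0.016 ± 0.31 (SE; edgeR adjusted p = 0.981) differed in sign between settings and was -0.21 with the length trend removed. Suz12, the scaffold of the complex, was at 34.9, 82.3 and 68.1 CPM in WT and at 43.6, 46.3 and 25.1 CPM in circSry KO. WT replicate 1 lay below 2 of the KO libraries, and the log2 fold change was -0.69 ± 0.42 (SE; edgeR adjusted p = 0.347), or -0.35 with the length trend removed. As whole genes with introns, Ezh2, Suz12 and Eed overlap annotated genes on the opposite strand. The overlap is 5039 bases for Gm26625 in Ezh2, 12515 bases for Gm26563 in Suz12 and 261 bases for E230029C05Rik in Eed. Whether exons overlap was not examined, and without strand any reads in shared exons cannot be told apart.

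Among the PRC1 ubiquitin ligases, Ring1 (chr17:34020792-34024680, minus strand) had the largest log2 fold change of the 10 genes with all 6 libraries in edgeR, but not without circSry KO replicate 3 or without WT replicate 1, where those of Rnf2 and Pcgf6 were larger. It stood at 58.3, 54.3 and 45.2 CPM in WT and at 16.4, 25.4 and 28.3 CPM in circSry KO, which put every KO library below every WT library. The mean in KO was 44.4% of that in WT, a log2 fold change of -1.17 ± 0.34 (SE; edgeR adjusted p = 0.106; DESeq2 adjusted p = 0.0232). Over the 17 other settings it lay between -1.68 and -0.97, and the adjusted p between 0.00723 and 0.425. In TPM Ring1 was at 42.0, 46.9 and 35.7 in WT and at 9.55, 18.6 and 11.8 in circSry KO, again without overlap.

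Rnf2 (chr1:151458004-151500955, minus strand), the other ligase of PRC1, stood at 49.2, 93.6 and 61.7 CPM in WT and at 26.5, 21.8 and 50.9 CPM in circSry KO. Replicates 1 and 2 were below WT and replicate 3 lay just above the lowest WT library. The log2 fold change was -1.04 ± 0.43 (SE; edgeR adjusted p = 0.191). In TPM the picture differed, because the authors' TPM for Rnf2 was 29.6, 67.7 and 47.1 in WT and 29.5, 35.7 and 13.8 in circSry KO, so that replicate 2 lay within the WT range, replicate 1 at its lower edge and replicate 3 below it.

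This difference between scales came with a difference in the transcript length that the deposited count and FPKM (a level per fragment and length) imply for a gene. The length reflects which annotated transcripts the authors' estimation gave the reads to. For Rnf2 it was 2146, 2291 and 1978 bases in WT, 1054 and 929 bases in circSry KO replicates 1 and 2, and 2826 bases in replicate 3. Replicates 1 and 2 were thus at 0.464 of WT (ratio of geometric means), and of 9095 genes with at least 50 counts in every library 0.176% had a lower ratio. This grouping leaves out replicate 3, which was at 1.32 of WT, and there 92.4% of these genes had a lower ratio. The annotation lists 5 protein-coding Rnf2 transcripts of 482 to 3201 bases. As whole genes with introns, Trmt1l on the opposite strand overlaps Rnf2 by 158 bases and Gm36527 on the same strand by 3029 bases. Whether exons overlap was not examined. The library kit does not mark strand, so any reads in exons shared with Trmt1l cannot be told apart. With implied lengths divided out, the log2 fold change of Rnf2 was -0.56 ± 0.36 (SE; edgeR adjusted p = 0.401).

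**Figure D2:**
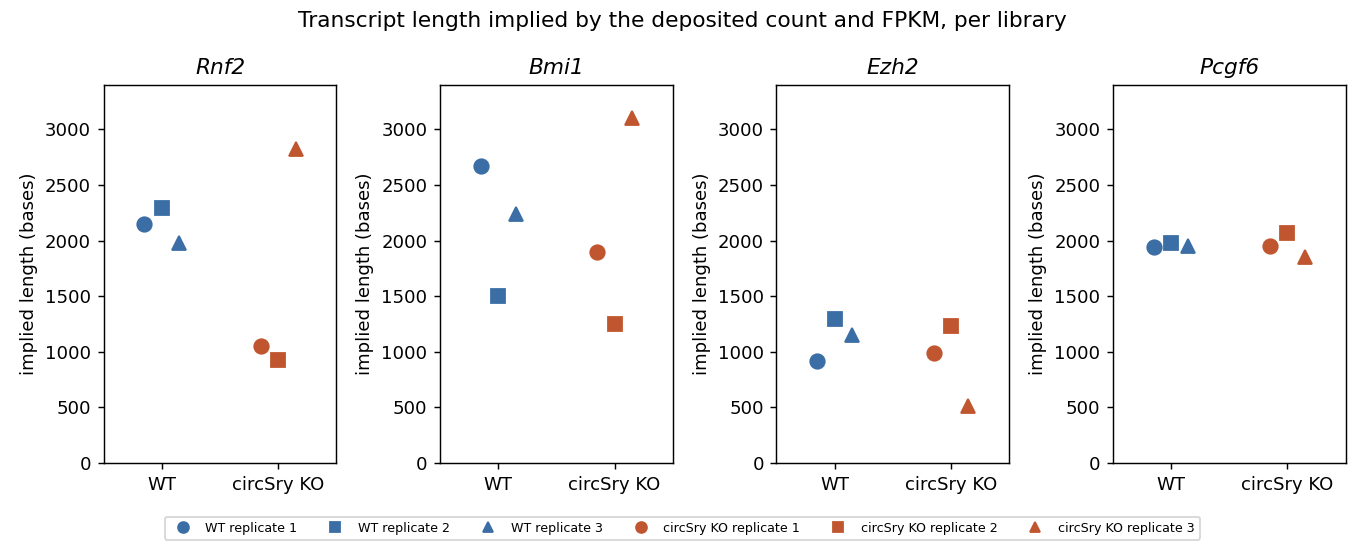
Transcript length in bases (y axis from 0) implied by the deposited count and FPKM in each library, for Rnf2, Bmi1, Ezh2 and Pcgf6, with WT in blue and circSry KO in orange. Rnf2 is shortest in circSry KO replicates 1 and 2 (1054 and 929), Ezh2 is shortest in replicate 3 (516), and Pcgf6 stays between 1852 and 2069 bases in all 6 libraries.

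Ezh2 differed mainly in circSry KO replicate 3, at 0.465 of WT, where 4.64% of the 9095 genes had a lower ratio. Bmi1 differed in the same directions as Rnf2, at 0.740 of WT in replicates 1 and 2 and 1.49 in replicate 3. For these 2 ratios of Bmi1, 4.51% and 96.3% of the genes were lower. The implied length of Ezh2 was 920, 1295 and 1147 bases in WT and 986, 1228 and 516 bases in circSry KO, and with lengths divided out its log2 fold change was 0.38 ± 0.48 (SE). That of Bmi1 ran from 1497 to 2671 bases in WT and from 1246 to 3101 bases in circSry KO. These ranges overlapped. Pcgf6 had 1946 to 1977 bases in WT and 1852 to 2069 bases in circSry KO.

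Among the PCGF partners, Bmi1 (chr2:18677018-18686629, plus strand), a subunit of canonical PRC1 known for stem cell maintenance, was the only PRC1 member with a positive fold change. It stood at 66.8, 83.4 and 80.1 CPM in WT, at 138 and 153 CPM in circSry KO replicates 1 and 2, and at 70.9 CPM in replicate 3. The first pair lay above all WT libraries and replicate 3 lay within them. The log2 fold change was 0.65 ± 0.36 (SE; edgeR adjusted p = 0.305).

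Pcgf6 (chr19:47033617-47050906, minus strand), which marks the variant PRC1 known in mouse for silencing germ cell genes in other cells, stood at 74.3, 144 and 133 CPM in WT and at 45.6, 40.6 and 88.0 CPM in circSry KO. Replicates 1 and 2 were below WT, and replicate 3 lay between WT replicate 1 and the other WT libraries. The log2 fold change was -1.01 ± 0.42 (SE; edgeR adjusted p = 0.193). In TPM the groups were separated, at 49.3 to 120 TPM in WT and 27.3 to 36.4 TPM in circSry KO. Over the 6 libraries Pcgf6 and Rnf2 had much the same profile in CPM, with a root-mean-square difference of 0.17 in mean-centred log2 CPM. Ezh2 and Eed were closest at 0.15, and Rnf2 and Bmi1 farthest at 1.11. In TPM replicate 3 was the lowest circSry KO library for Rnf2 (13.8) but the highest for Pcgf6 (36.4).

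Scml2, encoded at chrX:161117193-161258213 (GRCm38, plus strand), had 39.3, 61.0 and 47.3 CPM in WT and 37.6, 35.7 and 33.7 CPM in circSry KO. In CPM all KO libraries were lower than all WT libraries, but the highest of them was close to the lowest WT library. In TPM the groups overlapped, at 25.9, 64.1 and 37.1 in WT and 20.8, 31.8 and 10.8 in circSry KO. The implied length of Scml2 in replicate 3 was 1.32 of WT, and 92.3% of the 9095 genes had a lower ratio. The mean was 49.2 ± 10.97 CPM in WT and 35.6 ± 1.97 CPM in circSry KO (SD, n = 3 each). The log2 fold change, -0.47 ± 0.31 (SE; edgeR adjusted p = 0.387), did not pass. It was negative in all 17 other settings, from -1.03 to -0.29, and passed in 0 of them. Of 12247 other genes with a mean of at least 5 CPM, the 5 with the profile nearest to that of Scml2 over the 6 libraries were Wrnip1, Rab14, Pak2, Zfp644 and Gpatch2l, with root-mean-square differences of 0.0503 to 0.086 in mean-centred log2 CPM, against a median of 0.61 over all of them.

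Usp7, the deubiquitinase that SCML2 binds, had the most counts of the members. It stood at 283, 286 and 316 CPM in WT and at 321, 486 and 245 CPM in circSry KO. Replicates 1 and 2 were above WT and replicate 3 below it. Its log2 fold change was 0.25 ± 0.33 (SE; edgeR adjusted p = 0.681), or 0.53 with the length trend removed. It was negative in the limma fits on log2 TPM and without circSry KO replicate 2, while the mean TPM was 113 in WT and 114 in circSry KO.

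Without circSry KO replicate 3 edgeR called 5 of the 10 members, 4 lower and 1 higher. The lower ones were the same 4 genes, at log2 fold changes of -1.54 ± 0.34 for Rnf2, -1.49 ± 0.34 for Pcgf6, -1.38 ± 0.32 for Ring1 and -1.10 ± 0.32 for Ezh1 (SE; edgeR adjusted p = 0.00639, 0.00733, 0.00723 and 0.0214). Bmi1 was the higher one, at 0.87 ± 0.27 (SE; edgeR adjusted p = 0.027). In that fit 16.2% of all 17948 genes tested were called lower and 18.5% higher, and its p-values are too small, since replicate 3 was left out for standing apart. For each of these 5 genes the adjusted p was lowest in this fit, and over the other settings it reached 0.575 for Rnf2, 0.546 for Pcgf6, 0.425 for Ring1, 0.488 for Ezh1 and 0.879 for Bmi1. The summed leptotene to zygotene markers, whose members differed in replicate 3 as given above, were at 500 and 442 CPM in circSry KO replicates 1 and 2 and at 1698 CPM in replicate 3, and their part in these values was not tested. Scml2 stood at -0.47 there and did not pass.

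**Figure D3:**
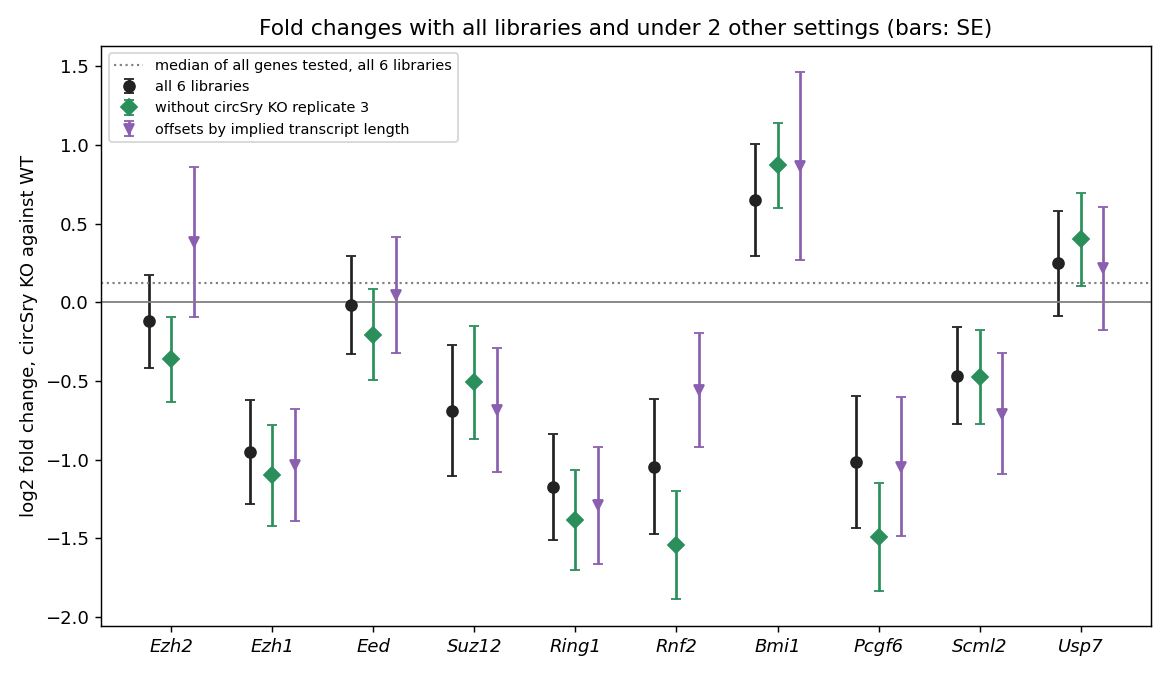
Log2 fold change of circSry KO against WT (y axis) with its SE for each gene, with all 6 libraries (black), without circSry KO replicate 3 (green) and with the implied transcript length divided out (purple); the dotted line is the median of all genes, 0.12. Ring1, Ezh1 and Pcgf6 stay at or below -0.95 in all 3 settings, while Rnf2 moves from -1.54 to -0.56 and Ezh2 lies on both sides of 0.

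The ratio of a pair of genes within a library does not depend on that library's scaling, so 7 pairs were compared as log2 ratios of TPM with a two-sided exact permutation test, whose smallest p for 3 against 3 libraries is 0.1. Ezh2 to Ezh1 was 10.7, 6.41 and 8.52 in WT and 19.0, 11.2 and 34.3 in circSry KO. Every KO library was above every WT library, a difference of 1.21 on the log2 scale (exact p = 0.1, 0.35 adjusted over the pairs). It was 0.81 in CPM and 0.80 without circSry KO replicate 3, the library in which the implied length of Ezh2 was 516 bases. Scml2 to Usp7 was 0.287, 0.496 and 0.309 in WT and 0.228, 0.153 and 0.247 in circSry KO, all below WT, a log2 difference of -0.78 (exact p = 0.1, 0.35 adjusted). Scml2 to Rnf2 stayed between 0.706 and 0.948 in all 6 libraries, with a log2 difference of -0.14 (exact p = 0.4); in CPM, where Rnf2 is not divided by its length, the difference was 0.65. Rnf2 to Ring1, Bmi1 to Pcgf6, Eed to Suz12 and Ezh2 to Suz12 overlapped between the groups (exact p = 0.2 to 0.5). Bmi1 to Pcgf6 was 0.524 to 0.766 in WT, 3.11 and 6.23 in circSry KO replicates 1 and 2, and 0.483 in replicate 3. The 3 libraries of that group thus lay on both sides of WT.

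**Figure D4:**
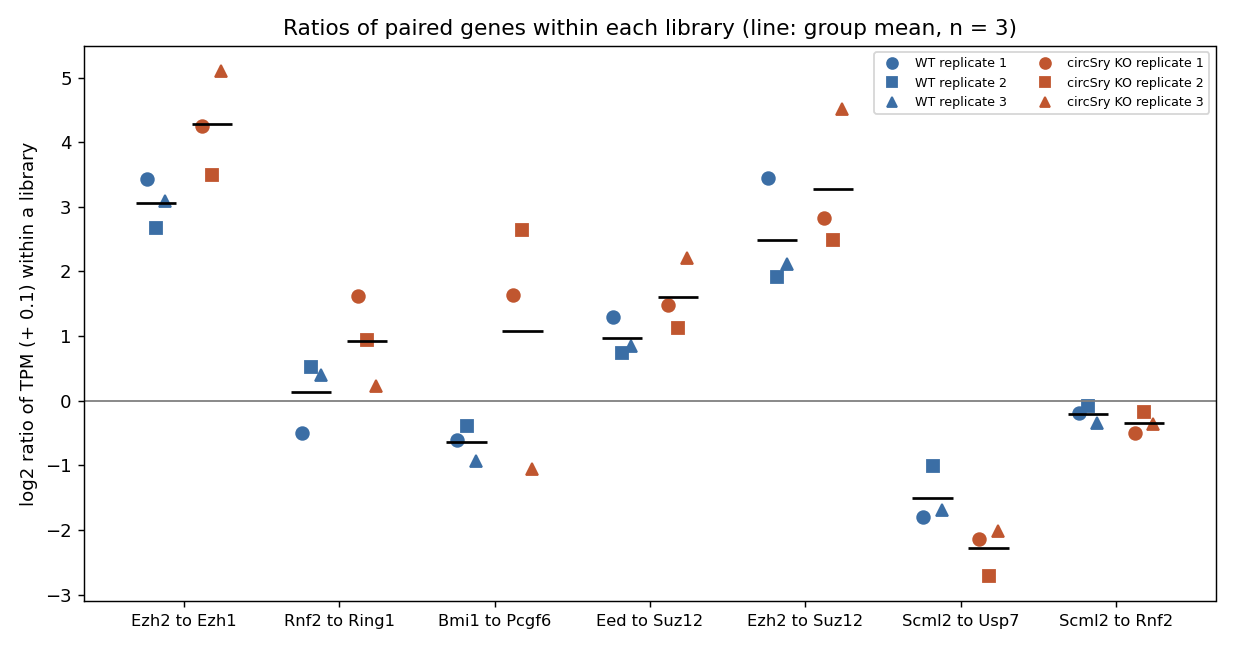
Log2 ratio of TPM, each with 0.1 added, of 7 pairs of genes within each library (y axis), for WT (blue) and circSry KO (orange), with group means as lines (n = 3 each). Ezh2 to Ezh1 is higher and Scml2 to Usp7 lower in all 3 KO libraries than in all WT libraries, and Bmi1 to Pcgf6 has circSry KO replicate 3 apart from replicates 1 and 2.

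The miR-138-5p motifs can now be set beside these values. The 4 genes with a match, Bmi1, Usp7, Ezh2 and Scml2, had log2 fold changes of 0.65, 0.25, -0.12 and -0.47, and none reached an unadjusted p under 0.05. Bmi1 holds the longest match. Of the 4 genes that were lower at an unadjusted p under 0.05, 0 had a match.

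Other genes of the Polycomb system were read from 8 lists holding 120 genes, of which 83 were tested. Their median log2 fold change was -0.50 beside 0.12 for all genes. In edgeR 0 passed the adjusted threshold. At an unadjusted p under 0.05 there were 19 lower, 22.9% against 9.84% of all genes, and 2 higher, against 13.6% of all genes. These counts describe the lists and were not tested as sets, and the lists were chosen with earlier results of these data known.

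Among 9 tested accessory subunits of PRC2 the median was -0.83, with 3 at an unadjusted p under 0.05 on the lower side and 1 on the higher. Mtf2, which guides PRC2 to unmethylated CpG DNA, had 96.4 ± 15.2 CPM in WT and 47.5 ± 13.2 CPM in circSry KO (SD, n = 3 each), -1.02 ± 0.33 on the log2 scale (SE; edgeR adjusted p = 0.125). Rbbp7, a histone-binding subunit that PRC2 shares with other complexes, had the opposite sign. It stood at 44.5, 46.2 and 37.1 CPM in WT and at 88.7, 104 and 114 CPM in circSry KO, with all KO libraries above WT, at 1.26 ± 0.29 (SE; edgeR adjusted p = 0.0897). Its paralogue Rbbp4, the most abundant of the list, had -0.50 ± 0.39 (SE).

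All 10 genes on the canonical PRC1 list were tested and all 10 had a negative fold change (median -0.32), with 1 at an unadjusted p under 0.05. That gene was Cbx7, a reader of the PRC2 mark, at 81.9, 128 and 107 CPM in WT and 42.5, 45.1 and 67.1 CPM in circSry KO, a log2 fold change of -1.03 ± 0.33 (SE; edgeR adjusted p = 0.126). Cbx6, another reader of this kind, had -0.79 ± 0.40, and Phc1, the most abundant, -0.34 ± 0.37 (SE).

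Of 26 genes of the variant PRC1 complexes, including the partners of PCGF6, the unadjusted p was under 0.05 for 6 lower genes and 0 higher ones (median -0.51). Fbrs had 178 ± 39.3 CPM in WT and 54.2 ± 16.4 in circSry KO, and Tfdp1, the dimerization partner of E2F factors, 100.4 ± 29.1 and 35.4 ± 12.7 CPM (SD, n = 3 each). Both were lower in all KO libraries, at -1.71 ± 0.36 and -1.50 ± 0.39 (SE; edgeR adjusted p = 0.0877 and 0.0951). Csnk2b, the regulatory subunit of casein kinase 2, was the most abundant and had 0.66 ± 0.36 (SE).

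Enzymes and partners that remove the PRC1 mark numbered 12, of which 10 had a negative fold change (median -0.43) and 0 passed. At an unadjusted p under 0.05 there were 4 on the lower side and 0 on the higher. Asxl2, a cofactor of the deubiquitinase BAP1, had -1.34 ± 0.36 and the H2A deubiquitinase Mysm1 -1.60 ± 0.46 (SE; edgeR adjusted p = 0.0968 and 0.108), both with the groups separated, while Asxl1, the most abundant, had -0.15 ± 0.33 (SE). Of the H3K27 demethylase genes 0 of 3 had an unadjusted p under 0.05, and Kdm6a and Kdm6b had -1.01 ± 0.53 and -0.67 ± 0.39 (SE). Of 10 partners and substrates of USP7, 7 had a negative fold change and 3 a positive one (median -0.52), and 0 passed. The unadjusted p was under 0.05 for 3, all on the lower side. Dnmt1, the maintenance DNA methyltransferase, had 140.5 ± 48.9 CPM in WT and 41.7 ± 7.88 CPM in circSry KO (SD, n = 3 each), or -1.75 ± 0.37, Rad18, a ubiquitin ligase of damage tolerance, had -1.08 ± 0.31, and Gmps, the most abundant, 0.54 ± 0.29 (SE; edgeR adjusted p = 0.0877, 0.105 and 0.292).

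Of relatives of SCML2 with an MBT or SAM domain, 6 of 10 were tested, 5 of them had a negative fold change (median -0.45) and 0 passed. The unadjusted p was under 0.05 for 2, both on the lower side. Samd7 stood at 10.6, 16.1 and 14.9 CPM in WT and 2.65, 1.85 and 4.34 CPM in circSry KO, and its log2 fold change of -2.23 ± 0.45 (SE; edgeR adjusted p = 0.087) was the largest of the 83. Mbtd1 had -1.42 ± 0.45 and Sfmbt1, the most abundant, -0.39 ± 0.27 (SE).

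Hox genes, the classic targets of Polycomb silencing, were mostly too low to test. Of 39 listed, 7 were tested, with a median of 0.015, and 2 had no count in any library. Hoxd8 stood at 53.0, 38.8 and 45.3 CPM in WT and 108, 66.3 and 69.6 CPM in circSry KO, above WT in all 3 libraries, at 0.83 ± 0.33 (SE; edgeR adjusted p = 0.18). Hoxa3 had -0.87 ± 0.42 and Hoxa4, the most abundant at 68.9 ± 10.6 CPM in WT (SD, n = 3), had 0.015 ± 0.32 (SE). The tested Hox genes therefore lay on both sides of 0.

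**Figure D5:**
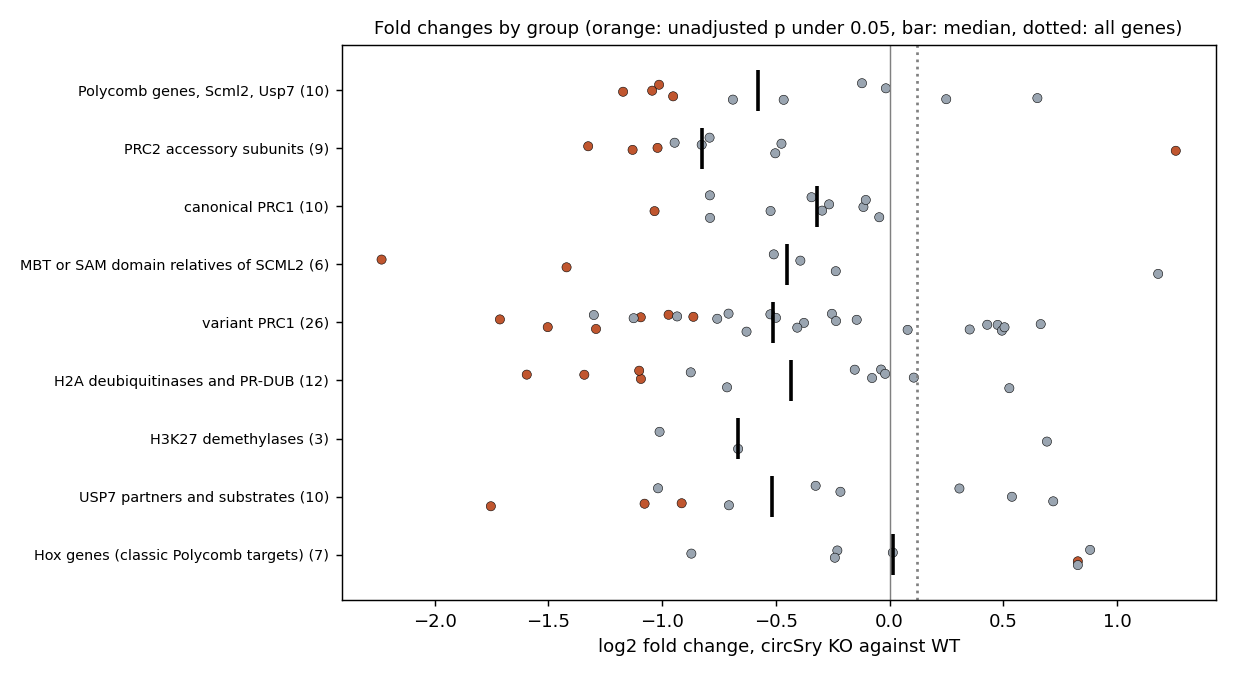
Log2 fold change of circSry KO against WT (x axis) of the 10 genes and of the tested genes of 8 lists (number in brackets), orange where the unadjusted p is under 0.05, with the median of each group as a bar and that of all genes, 0.12, as a dotted line. The medians of the PRC1, PRC2 and USP7 lists lie from -0.83 to -0.32, and that of the Hox genes at 0.015.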

How the data were processed

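Primary spermatocytes were sorted and their RNA made into libraries with a TruSeq kit, per the labels' protocols, which keeps no strand information. Per the file headers, the deposited table gives an expected count, a TPM and an FPKM for each gene in each library. The authors computed the TPM and FPKM values. STAR 2.7.0f, RSEM 1.3.2, edgeR 3.28.1, GRCm39 and mm9 are named, without roles, in the submitters' processing notes, and no annotation release is given in those notes. A second deposited sheet of TPM was not used.

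Here the expected counts were rounded and fitted with edgeR 4.0.16 (R 4.3.3) on all 6 libraries, with TMM factors, filterByExpr, the quasi-likelihood F test of genotype and Benjamini-Hochberg adjustment. An SE is the absolute log2 fold change divided by the square root of F. CPM uses TMM-scaled library sizes. Implied length is the count as a share of the library's total, divided by FPKM and rescaled to bases. Gene positions and 3' UTRs are those of GENCODE M21 (GRCm38), joined by gene ID; the counts may rest on another build. Ratios used log2(TPM + 0.1) and scipy 1.17.1.

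The alternatives were factors by RLE or upper quartile, no filter or a minimum of 1 CPM in 3 libraries, DESeq2 1.42.0, limma 3.58.1 with voom or on log2(TPM + 1) and log2(TPM + 0.1), a replicate block, offsets for a length trend (lowess span 0.3), leaving out each library and, chosen after seeing the data, offsets by implied length. The edgeR step was run on simulated counts with planted changes to check the code, and its power for these libraries is not given. Named genes were the 10 members, in each list the 2 with the smallest p and the most abundant, and the 5 nearest to Scml2. Members and lists were chosen with earlier results of these data known.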

Additional observations from a re-analysis of the deposited data

How the results depend on the processing

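Of 170 values of the 10 members' log2 fold changes under 17 other settings, 156 kept their sign and side of the threshold. Calls over all genes were 0 higher and 0 lower in edgeR (2285 and 1656 at an unadjusted p under 0.05), but 1161 and 782 in DESeq2, 548 and 321 with no filter, 4 and 2 on log2(TPM + 1) and 4 and 3 on log2(TPM + 0.1). With each library left out in turn they ranged from 0 to 3319 higher and 0 to 2909 lower, both highest values without circSry KO replicate 3. Of the 10 members DESeq2 called 1, and the range with a library left out was 0 to 5. Of the 83 tested list genes 12 were called by DESeq2, 1 of them higher and the others lower, against 6.9% of all genes higher and 4.65% lower. With no filter 4 were called, both directions together, against 1.75% of all genes higher and 1.03% lower. With a library left out 0 to 29 were called, again both directions together. The 29 came without circSry KO replicate 3, where 18.5% of all genes were called higher and 16.2% lower. Signs turned for Eed (0.058 with upper-quartile factors, 0.047 with implied lengths, 0.07 without WT replicate 2, 0.12 without circSry KO replicate 2; range with a library left out -0.21 to 0.12), for Usp7 (-0.25 on both TPM scales, -0.061 without circSry KO replicate 2; range with a library left out -0.061 to 0.40), for Ezh2 (0.38 with implied lengths) and for the ratio of Scml2 to Rnf2 (0.65 in CPM); the cause was not tested. Against TMM the median of all genes moved by -0.37 and -0.46 on the TPM scales, by -0.14 with voom, by -0.12 with the block and by -0.10 without circSry KO replicate 3. Relative to that median Usp7 stood at 0.0089 and 0.093 on the TPM scales. Same-numbered samples deviated from their group means with correlations of 0.024, 0.32 and -0.26, and differently numbered ones with -0.46 to 0.35. These correlations cannot decide whether the numbers pair the samples, because the deviations of the libraries in a group sum to 0. With the replicate block 0 members and 0 genes were called, and Scml2 stood at -0.44. At 133 to 4209 counts per member and library, the spread between libraries and not counting limits these values.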
